A study of Arabidopsis thaliana with 13 samples.

Results

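The 69 genes described here are encoded in the chloroplast genome of Arabidopsis thaliana. They are the genes with a probe set annotated to exactly 1 gene whose locus tag belongs to that genome, and each had 1 such probe set among the 22746 probe sets of the Affymetrix ATH1 array that are not controls. They comprise 10 subunits of the NDH complex, 7 genes of photosystem I, 15 of photosystem II, 7 of the cytochrome b6f group, 6 of the ATP synthase, rbcL, 15 ribosomal protein genes, 4 subunits of the plastid RNA polymerase, and matK, clpP, accD and cemA. A further 8 probe sets, annotated to genes of the chloroplast genome with 2 copies, are outside this choice.

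The study asked which genes respond early to the NAC transcription factors ANAC092 and ANAC059. Shoots of 3-week-old seedlings in the Col-0 background, grown on sugar-containing medium, were collected after 5 h with 10 µM estradiol. On 3 arrays the plants carried ANAC092 under estradiol control, on 2 arrays ANAC059 under the same control, and on 3 arrays the inducible vector without insert, so control plants received estradiol too. Leaf 11 of 38-day-old plants grown in soil was taken from Col-0 wild type, an ANAC059 T-DNA insertion line and an ANAC092 T-DNA insertion line, with 1 array each. The number of independent lines behind each construct or insertion, and of plants behind each array, was not stated in the labels. Robust multi-array average (RMA) values were made in 3 separate sets, so every level and difference below is a log2 signal within its own set, and signals of different genes are not set against each other. Empty vector replicates 1 and 2 appear in both seedling sets and were treated as the same hybridisations. The difference between them correlated between sets at r = 0.977 over the 69 genes and 0.883 over all probe sets. Over all probe sets, values of the same replicate differed between sets with an SD of 0.142. Replicates 1 and 2 differed with an SD of 0.178 within the ANAC092 set. The levels of ANAC092 and ANAC059 themselves were not analysed here.

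The chloroplast genome carries a small part of the genes needed for photosynthesis. The rest of each complex is encoded in the nucleus and imported as protein. Most chloroplast genes lie in operons that are transcribed as long precursors and then cut, spliced and edited. Genes of the photosystems are transcribed mainly by a plastid-encoded polymerase. By contrast, a phage-type polymerase made in the nucleus mainly reads accD and rpoB, rpoC1 and rpoC2, genes for subunits of the plastid-encoded enzyme. Transcript levels in this compartment depend strongly on RNA stability. Chloroplast mRNAs lack the stable poly(A) tails of nuclear mRNAs, and tails added to them mark RNA for decay. The labelling kit named for these arrays starts from an oligo(dT) primer, so the signal of a chloroplast gene may depend on how its RNA was primed as well as on its amount; the part of this in the results was not tested.

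Of the listed leaf markers, RCA, which encodes Rubisco activase, had a named probe set. It read 12.12 to 12.95 in the seedling sets and carried the same value, 13.58, on all 3 leaf arrays. The root markers EXPA7 and GH9C1 read 4.63 to 6.95. These levels are a description only, and neither the genes nor the sets are ranked by them. Arrays of a group were not equally alike for the chloroplast genes. Over the 69 genes the difference between ANAC092 induced replicates 1 and 3 had an SD of 0.238, while replicate 2 was further away, with SDs of 0.366 and 0.406. Over all probe sets these SDs were 0.129, 0.364 and 0.343. The titles call the arrays biological replicates, and whether replicates 1 and 3 are independent was not tested. For the empty vector the SD over the 69 genes between replicates 1 and 2 was 0.377, and those to replicate 3 were 0.686 and 0.566. The pair of ANAC059 induced arrays differed with an SD of 0.666 over these genes, against 0.182 over all probe sets.

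After ANAC092 induction, chloroplast genes were higher far more often than lower. Of the 69, 58 had a positive mean change, with a median of 0.42, against a median of −0.03 over all probe sets. A gene was called at a two-sided limma p under 0.05, adjusted by Benjamini-Hochberg across the whole array, and 5 chloroplast genes rose by this rule: atpA, ndhJ, rpl20, matK and rbcL. None fell. These 5 are 7.25% of the 69, where 2.23% of all probe sets were called in either direction, 318 of them higher and 189 lower. In 34 genes, or 49.3%, every induced array lay above every empty vector array, as did 7.98% of all probe sets. No chloroplast gene had all induced arrays below all controls, a pattern held by 12.4% of all probe sets. At an unadjusted p under 0.05, 34 genes (49.3%) were higher, against 5.32% of all probe sets. Shoots are bulk tissue, so a larger share of cells or chloroplasts rich in these transcripts and more transcript per chloroplast cannot be told apart.

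**Figure D1:**
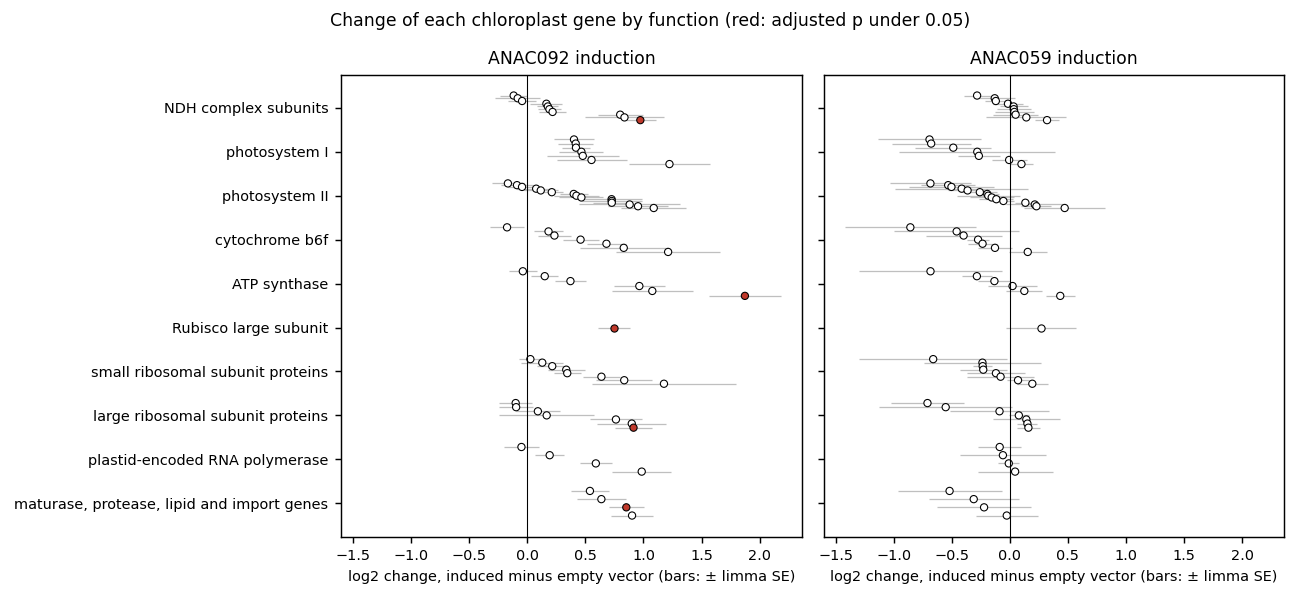
Log2 change (induced minus empty vector, horizontal axis) of each of the 69 chloroplast genes by function, with bars of ± 1 limma standard error; the left panel is ANAC092 induction (3 against 3 arrays) and the right panel ANAC059 induction (2 against 2). The 5 genes past the threshold on the left are filled, most points there lie right of 0, and no gene on the right passed.

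The ATP synthase genes gave the largest single change. The gene atpA encodes the alpha subunit of the catalytic CF1 part of the enzyme. Its level was 7.50, 7.88 and 8.71 on the empty vector arrays and 9.56, 10.26 and 9.89 on the ANAC092 arrays. The groups did not overlap, although empty vector replicate 3 stood well above the other controls. The change was 1.87 ± 0.31 (SE, n = 3 against 3), a 3.66-fold rise, with an adjusted p of 0.0256. The neighbours of atpA in its operon had changes in the same direction without passing the test. For atpH, which encodes the ring subunit of the membrane part CF0, empty vector arrays gave 9.47, 9.28 and 8.20 and induced arrays 9.99, 9.67 and 10.51. Here replicate 3 was the lowest control, the reverse of its place for atpA, and the change of 1.08 ± 0.35 (SE) had an adjusted p of 0.252. The other CF0 genes, atpF and atpI, had changes of 0.96 and 0.37 with adjusted p of 0.0907 and 0.303. By contrast, atpB and atpE, for the beta and epsilon subunits, form an operon of their own and had changes near 0. The atpB signal read 14.36, 14.08 and 14.00 in the controls and 14.12, 14.06 and 14.13 after induction, a change of −0.04 ± 0.12 (SE). That of atpE read 14.12, 14.04 and 13.78 and then 14.10, 14.15 and 14.15, a change of 0.15 ± 0.11 (SE). Whether a rise would show in signals this bright was not tested. The 6 genes had a median change of 0.67, 4 without overlap and 1 called.

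The gene rbcL encodes the large subunit of Rubisco, the carbon-fixing enzyme. It read 8.14, 7.86 and 8.04 on the empty vector arrays and 8.58, 9.00 and 8.71 on the induced arrays, with all induced arrays higher. It rose by 0.75 ± 0.14 (SE), or 1.68-fold, with an adjusted p of 0.0416. RCA, the nuclear gene for the activase of the same enzyme, had a change of −0.15 ± 0.17 (SE) with a limma adjusted p of 0.786. Its controls read 12.15, 12.24 and 12.73 and its induced arrays 12.38, 12.17 and 12.12. The groups overlapped, with empty vector replicate 3 above every other array of the set.

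Among the NDH genes, whose products form the chloroplast NADH dehydrogenase-like complex of cyclic electron flow, ndhJ was called. It had empty vector levels of 7.27, 7.09 and 7.15 and induced levels of 7.90, 8.18 and 8.34. The controls lay close together and all induced arrays were above them. Its change of 0.97 ± 0.13 (SE) was 1.96-fold with an adjusted p of 0.0117, the smallest among the 69 genes. In the same operon ndhK had a change of 0.80 ± 0.19 (adjusted p = 0.111), whereas ndhC, at its promoter end, read 12.91, 12.61 and 12.56 and then 12.59, 12.58 and 12.56, a change of −0.12 ± 0.12 (adjusted p = 0.76). The probe sets of 1 operon thus spanned the highest and the lowest change of the 10 NDH genes. For ndhD the levels were 7.74, 7.88 and 8.61 in the controls and 8.88, 9.55 and 8.30 after induction, and the groups overlapped (change 0.84 ± 0.34, adjusted p = 0.385). The bright probe sets of ndhA and ndhI had changes of 0.19 and 0.18. The median over the 10 genes was 0.18, with 4 free of overlap.

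**Figure D2:**
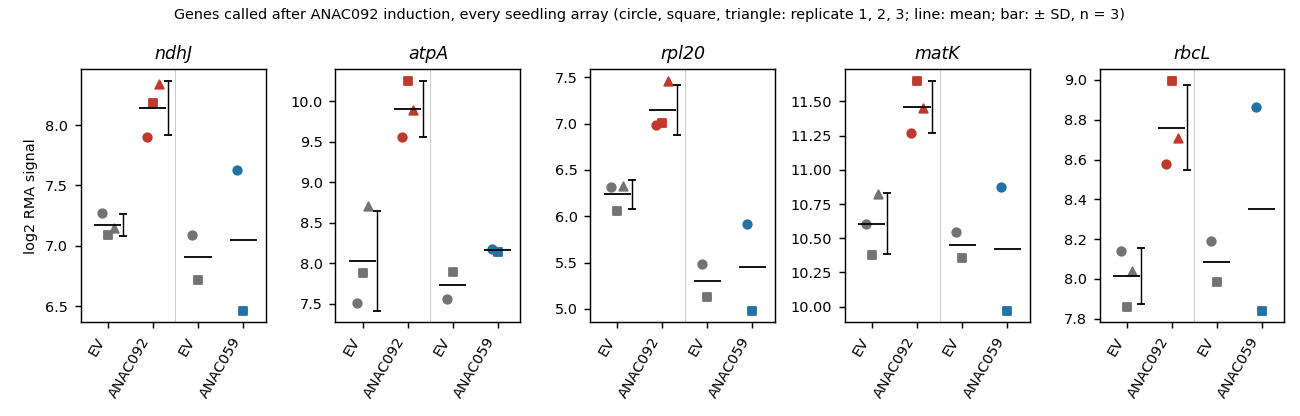
Log2 RMA signal (vertical axis, a separate scale for each gene) of the 5 genes called after ANAC092 induction on every seedling array; circles, squares and triangles are replicates 1, 2 and 3, lines are means and bars are ± SD for groups of 3. The ANAC092 arrays lie above all 3 empty vector arrays in each panel, while the pair of ANAC059 arrays lies far apart in all panels but that of atpA.

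Photosystem I genes all had positive changes after ANAC092 induction, from 0.40 to 1.22, and none was called. The largest was that of psaI, for a small membrane subunit. Its control levels were 9.44, 9.62 and 8.18 and its induced levels 10.46, 10.06 and 10.39. The groups did not overlap, yet replicate 3 was more than 1 below the other controls, and the change of 1.22 ± 0.35 (SE) had an adjusted p of 0.187. The reaction centre gene psaA read 9.20, 9.08 and 8.54 in the controls and 9.30, 9.34 and 9.38 after induction, also without overlap, with a change of 0.40 ± 0.17 (adjusted p = 0.418). For psaC, which carries the terminal iron-sulfur clusters, the change was 0.47 ± 0.19 with overlapping groups, and for ycf4, an assembly factor known from Chlamydomonas and tobacco, it was 0.48 ± 0.31, also with overlap. The median of the 7 genes was 0.47.

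Photosystem II genes ranged more widely, from −0.17 to 1.09 with a median of 0.42, and none was called. At the upper end psbK, a small core subunit, read 8.49, 9.69 and 9.42 in the controls and 10.27, 10.21 and 10.38 after induction. Control replicate 1 lay well below the other controls, while the induced arrays were close to each other; the change was 1.09 ± 0.28 (SE, adjusted p = 0.132). For its neighbour psbI, control replicate 1 was again the lowest, with controls at 9.02, 9.97 and 9.32 and a change of 0.95 ± 0.26 (adjusted p = 0.154). The psbN gene, read from the strand opposite to the psbB operon and known in tobacco to assist assembly of the photosystem, had a change of 0.73 ± 0.16 without overlap (adjusted p = 0.0834). The gene for the D1 reaction centre protein, psbA, read 9.39, 9.67 and 10.15 in the controls and 10.03, 10.91 and 10.45 after induction. Here control replicate 3 exceeded induced replicate 1, and the change was 0.73 ± 0.26 (adjusted p = 0.303). The D2 gene psbD gave 12.41, 12.58 and 12.30 and then 12.94, 12.86 and 12.67, a change of 0.40 ± 0.12 (adjusted p = 0.205). At the lower end were the 4 genes of the psbE-psbF-psbL-psbJ operon, with changes of −0.17 to 0.08 and psbL the lowest. The psbL levels were 11.01, 10.61 and 10.70 in the controls and 10.61, 10.47 and 10.73 after induction, a change of −0.17 ± 0.14. None of these 4 had induced arrays all above or all below the controls.

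In the cytochrome b6f group, which here includes ccsA, a gene for haem attachment known from Chlamydomonas, the median was 0.46 and no gene was called. The small subunit gene petL read 8.82, 8.37 and 6.91 in the controls and 9.20, 8.99 and 9.54 after induction. Control replicate 3 stood more than 1 below the others, and the change of 1.21 ± 0.45 (SE) had an adjusted p of 0.321. For petG, another small subunit, the controls were closer together at 5.84, 5.93 and 5.41 and the induced arrays at 6.52, 6.20 and 6.50, a change of 0.68 ± 0.16 (adjusted p = 0.107). Subunit IV, encoded by petD, had the lowest change of all 69 genes, −0.17 ± 0.15 (adjusted p = 0.702), with induced arrays at 6.17, 5.86 and 6.29 overlapping controls at 6.27, 6.46 and 6.13. Of the 7 genes, 4 had no overlap between groups.

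The ribosomal protein genes were divided. Among 7 genes of the large subunit, rpl20 was called. Its controls were 6.32, 6.06 and 6.33 and its induced arrays 6.98, 7.01 and 7.46, all of them above the controls. The rise was 0.91 ± 0.16 (SE), or 1.88-fold, with an adjusted p of 0.0298. By contrast rpl22, with controls at 11.67, 11.74 and 12.02 and induced arrays at 11.90, 11.50 and 11.74, had a change of −0.10 ± 0.14, and rpl32 one of 0.17 ± 0.41; for both, the groups overlapped. The large-subunit median was 0.17. Among 8 genes of the small subunit, with a median of 0.34 and no call, rps4 had the largest mean change and the widest spread. Its controls read 11.69, 11.23 and 9.07 and its induced arrays 11.93, 11.44 and 12.15. Control replicate 3 was more than 2 below the others, induced replicate 2 lay under control replicate 1, and the change of 1.18 ± 0.62 (SE) had an adjusted p of 0.521. At the other end rps3 gave 12.05, 12.05 and 12.26 and then 12.15, 12.12 and 12.17, a change of 0.03 ± 0.10, and rps15 had a change of 0.34 ± 0.12 (adjusted p = 0.278).

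The 4 polymerase genes had a median change of 0.39, against 0.42 over the 69 genes, with 2 free of overlap and none called, while matK rose. The gene matK encodes the maturase that assists splicing of chloroplast group II introns. It read 10.61, 10.38 and 10.83 in the controls and 11.27, 11.65 and 11.45 after induction, without overlap. It rose by 0.85 ± 0.15 (SE), or 1.81-fold, with an adjusted p of 0.0342. The polymerase subunit gene rpoC1 gave 8.37, 8.05 and 8.83 and then 9.14, 9.87 and 9.19, a change of 0.98 ± 0.25 (adjusted p = 0.13), and rpoC2 had a change of 0.59 ± 0.14 (adjusted p = 0.0899). The other subunit genes were closer to 0. For rpoB the change was 0.19 ± 0.12 (adjusted p = 0.611), with overlapping groups. The gene rpoA, which is cotranscribed with ribosomal protein genes, read 13.18, 12.65 and 12.91 in the controls and 12.88, 12.73 and 12.98 after induction, within the range of the controls, a change of −0.05 ± 0.15. The protease subunit gene clpP narrowly missed the threshold, with controls at 11.90, 11.43 and 11.45, induced arrays at 12.20, 12.70 and 12.57, a change of 0.90 ± 0.18 (SE) and an adjusted p of 0.0528. Its operon partner is rpl20. The envelope protein gene cemA read 10.71, 11.32 and 10.82 in the controls and 11.52, 11.56 and 11.39 after induction, a change of 0.54 ± 0.17 (adjusted p = 0.223). For accD, which encodes a subunit of the acetyl-CoA carboxylase of fatty acid synthesis, the change was 0.64 ± 0.21 (adjusted p = 0.253). The 4 genes matK, clpP, cemA and accD were all without overlap, with a median of 0.74.

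Arranged by operon, median changes ran from −0.07 to 0.96, with wide ranges inside several operons. In rps2-atpI-atpH-atpF-atpA all 5 genes had every induced array above every control, and the median change was 0.96. Medians in the clpP-rpl20 pair, the ndhC-ndhK-ndhJ operon, the rpoB-rpoC1-rpoC2 operon, the petL-petG-psaJ-rpl33-rps18 operon and the accD-psaI-ycf4-cemA-petA operon were 0.91, 0.80, 0.59, 0.55 and 0.54. They were 0.42 in psbB-psbT-psbH-petB-petD and 0.40 in both psbD-psbC-psbZ and psaA-psaB-rps14. The large ndhH to ndhD operon, counted with rps15 and psaC, had a median of 0.20. Medians were near 0 in the ribosomal operon that ends in rpoA (0.03), in atpB-atpE (0.06) and in psbE-psbF-psbL-psbJ (−0.07). The ribosomal operon nevertheless held rpl16 and rpl14, with changes of 0.90 ± 0.30 and 0.76 ± 0.22 and every induced array above every control (adjusted p of 0.257 and 0.196). Changes ran from −0.10 to 0.90 in that operon, from −0.12 to 0.97 in ndhC-ndhK-ndhJ, from −0.08 to 0.84 in ndhH to ndhD and from 0.09 to 1.21 in petL-petG-psaJ-rpl33-rps18. By polymerase, the 27 genes read mainly by the plastid-encoded enzyme had a median of 0.46 with 13 free of overlap. The 4 genes read mainly by the nucleus-encoded enzyme had a median of 0.61 with 3 free of overlap. The 9 measured genes with an intron, a list made after values were seen, had a median of 0.83 with 6 free of overlap and none called.

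**Figure D3:**
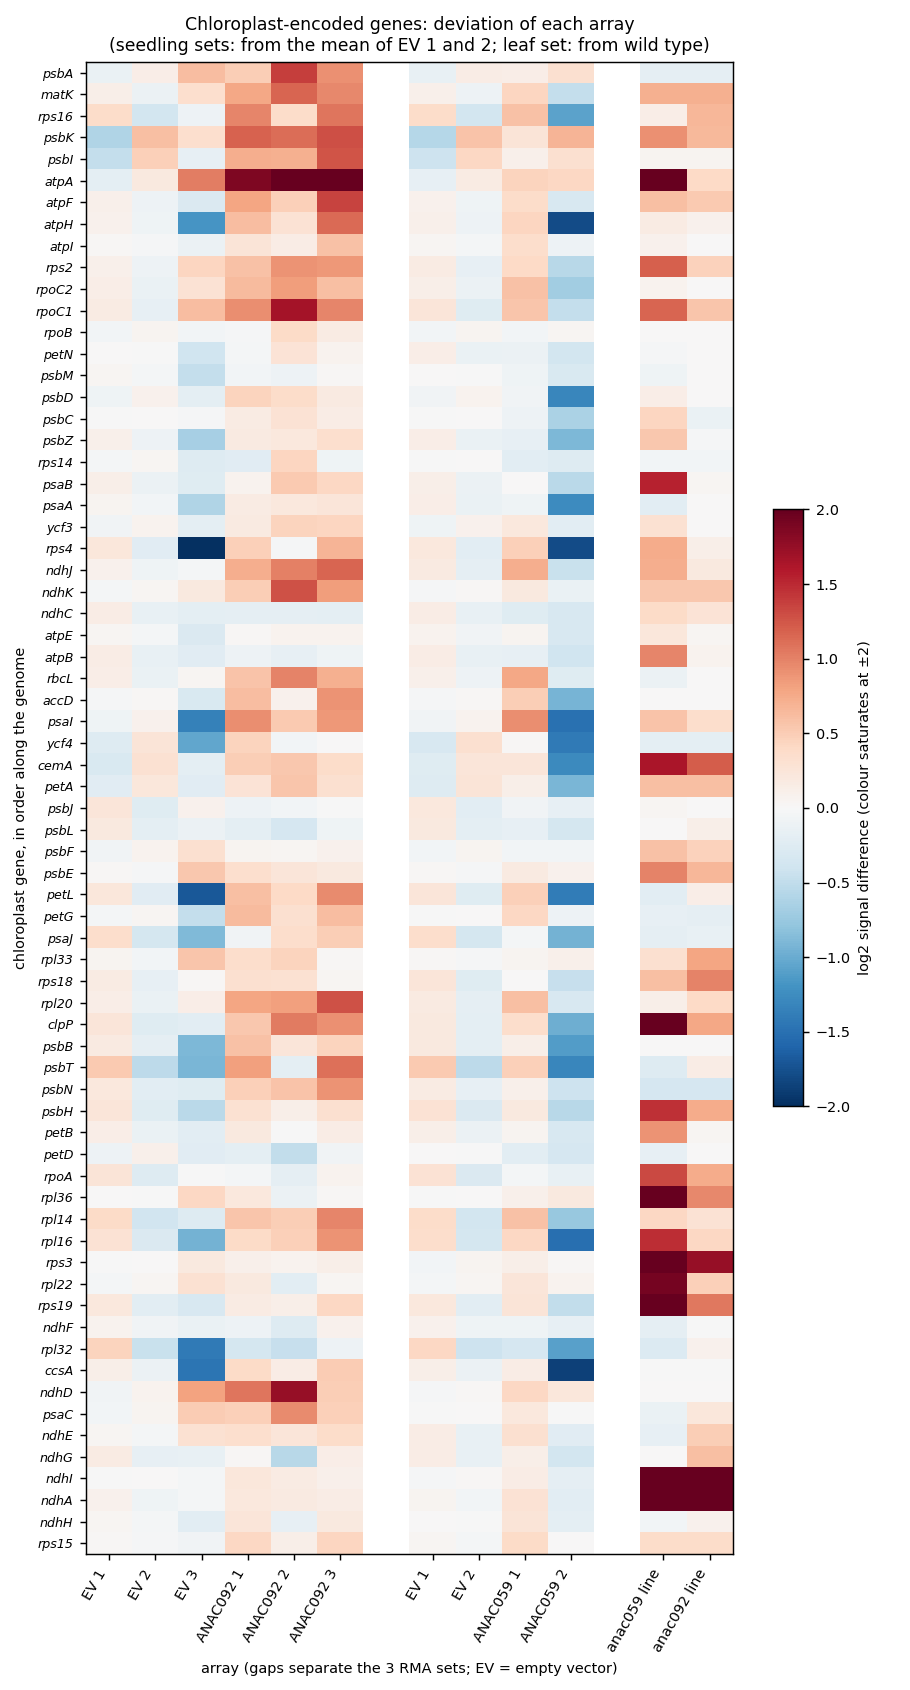
Heat map of the 69 chloroplast genes (rows, in the order of the genome) on each array (columns, 3 RMA sets separated by gaps); colour is the log2 difference from the average of controls 1 and 2 of the set, or from wild type in the leaf set. The ANAC092 columns are mostly red, empty vector replicate 3 and ANAC059 induced replicate 2 are dark blue in many of the same rows, and the leaf columns are red in the ribosomal, ndhA and ndhI rows.

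Which genes passed changed when single arrays were left out, in fits that also have fewer arrays. Set against the mean of controls 1 and 2, the median over the 69 genes was 0.34, 0.29 and 0.41 on the ANAC092 arrays and −0.19 on empty vector replicate 3. That control lay below both others in 37 genes (53.6%, against 42.0% of all probe sets) and above both in 17 (against 9586 of all 22746 probe sets). When each of the 6 arrays was left out in turn, ndhJ passed in 3 fits (adjusted p 0.0142 to 0.0739), atpA in 2 (0.011 to 0.124) and matK in 1 (0.0287 to 0.144). The genes rpl20 and rbcL passed in none, with adjusted p of 0.0533 to 0.14 and 0.0708 to 0.183. No chloroplast gene was called by limma without control replicate 1 or 2 or without induced replicate 3 (0.963%, 0.919% and 1.03% of all probe sets were). Without induced replicate 1, 2 were called (1.06% of all probe sets), and without induced replicate 2, 1 was (1.52%). Without empty vector replicate 3 there were 5 (3.46%), of which rps2 and rpoC2 were not among the first 5. The median change of the 69 genes was 0.33 to 0.52 in these 6 fits. When the other controls were dropped and only empty vector replicate 3 was kept, 7 genes were called (3.07% of all probe sets): petL, ccsA, psbB, psbZ, psaA, rps4 and psaI. The spread in that fit comes from the induced arrays, since a lone control is assumed to vary like them, and the genes called are ones for which this control was low. The 5 genes above were not among them: atpA, for instance, had a change of 1.20 with an adjusted p of 0.147. In 53 genes all induced arrays lay above that control, against 23.3% of all probe sets, a count that can only stay or grow as controls are left out.

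The difference between the 3′ and 5′ probe sets of the actin control, a measure of how far labelling reached along an RNA, moved in part with these groups. It was 1.96, 2.19 and 2.51 on the empty vector arrays and 2.47, 2.89 and 2.44 on the ANAC092 arrays. The same difference for GAPDH was 0.51, 0.07 and −0.14 in the controls and 0.13, 0.18 and 0.25 after induction, and for ubiquitin it was 0.76, 0.82 and 0.79 and then 0.85, 0.83 and 0.77, so the groups overlapped in all of them. The part of these differences in the chloroplast results was not tested.

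Genes of the other organelle and nuclear genes of the same complexes were described from the same fits. The 18 probe sets of mitochondrial genes, whose RNAs also lack stable poly(A) tails, stand for 11 genes. Several belong to nad1, with changes from −0.11 to 0.64 after ANAC092 induction, so the 18 are not separate genes. The median change of the 18 was 0.26. Of them, 15 were positive, 8 had no overlap between groups and 0 were called by limma. At an unadjusted limma p under 0.05, 8 were higher. The highest was nad4, a subunit of respiratory complex I, with a change of 0.76 ± 0.16 (SE) and an adjusted p of 0.0642. Of 115 listed nuclear genes that encode partners of the chloroplast products or proteins that transcribe and process their RNA, 20 had a probe set of exactly 1 gene. Their median change was −0.13, and 0 were called (limma; 3 were lower at an unadjusted p under 0.05). The 7 nuclear subunits of the photosystems, cytochrome complex, ATP synthase and Rubisco, with RCA, had a median of 0.02, and the 6 nuclear genes for plastid ribosomal proteins −0.14. Among those 7, empty vector replicate 3 was below both other controls in 5 and above both in 2. Set against the mean of controls 1 and 2, their median was −0.84 on that array and −0.05, −0.32 and −0.28 on the ANAC092 arrays. The median of 0.02 thus depends on that control. The nuclear NDH subunits NdhN and NdhL had changes of −0.07 and −0.38. ATPC1, the nuclear partner of atpA in CF1, had a change of −0.32 ± 0.11 (SE, adjusted p = 0.298).

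ANAC059 induction, on 2 arrays a group, gave no call among the 69 genes (limma; 2.99% of all probe sets were called). At an unadjusted p under 0.05, 5 genes passed, against 20.4% of all probe sets: atpA and ndhD were higher and petD, rps14 and ndhC were lower. The median change was −0.12, against −0.01 over all probe sets, and 23 changes were positive. Both induced arrays lay above both controls in 6 genes (8.70%, against 26.2% of all probe sets) and below both in 8 (11.6%, against 26.8%). The induced arrays lay on different sides of the controls in many genes. Replicate 1 was above both controls in 36 genes, against 8565 of all 22746 probe sets. Replicate 2 was below both in 54 (78.3%, against 37.6% of all probe sets). In 63 of 69 genes replicate 2 was the lower of the pair, against 10055 of all 22746 probe sets. The actin 3′ to 5′ difference of these arrays was 2.59 and 2.45, above the 2.03 and 2.26 of their controls; for GAPDH it was −0.01 and 0.06 against 0.45 and 0.03, and for ubiquitin 0.85 and 0.70 against 0.77 and 0.82. The part of these differences was not tested.

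The genes with the largest negative changes show this spread. For ccsA the controls read 11.18 and 10.95 and the induced arrays 11.22 and 9.20; the change was −0.86 ± 0.57 (SE, n = 2 against 2) with an adjusted p of 0.432. For rpl32 the arrays were 12.23 and 11.40 and 11.48 and 10.74, a change of −0.71 ± 0.32 (adjusted p = 0.269). The pair for atpH was 9.44 and 9.24 and 9.77 and 7.55, for a change of −0.68 ± 0.62. In each of these genes 1 of the induced arrays was low and the other at or near the controls. The same held for rps4, with 11.52 and 11.09 and then 11.78 and 9.51, and for psbD, with 12.49 and 12.63 and then 12.50 and 11.26. For ycf4 the levels were 9.53 and 10.18 and 9.89 and 8.44, and for cemA 10.86 and 11.35 and 11.34 and 9.82; the changes were −0.69 ± 0.44 and −0.52 ± 0.45, with adjusted p of 0.42 and 0.545. Without induced replicate 1, 14 genes were called lower (1.95% of all probe sets were called in either direction), with changes from −0.90 in psbZ to −1.87 in ccsA. Without induced replicate 2, rbcL (0.78, adjusted p = 0.0463) and psaI (0.93, adjusted p = 0.0213) were called higher (1.65% of all probe sets in either direction). In each of these fits the induced group is a single array, so the spread comes from the 2 controls alone. The median change of the 69 genes was −0.35 in the first case and 0.17 in the second. For psaI the whole pair was 10.35 and 7.93, on either side of controls at 9.35 and 9.50.

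A few genes did not follow this division. For atpA the controls were 7.56 and 7.89 and the induced arrays 8.18 and 8.14, a change of 0.43 ± 0.12 (SE) with an adjusted p of 0.131, with both induced arrays above both controls. For ndhD the levels were 7.90 and 7.96 and 8.35 and 8.15, also without overlap, with a change of 0.32 ± 0.10 (adjusted p = 0.155). The pair of controls for psbK lay further apart, at 8.56 and 9.71, than the induced arrays at 9.40 and 9.82, and its change of 0.47 ± 0.35 was the highest among the 69 (adjusted p = 0.478). For ndhC the arrays lay closer together, at 13.04 and 12.75 and 12.65 and 12.58, with a change of −0.28 ± 0.12; petD, at 5.92 and 5.91 and 5.71 and 5.57, had a change of −0.27 ± 0.09.

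In most of the other genes that were highest or lowest in their function, induced replicate 1 was again above both controls and replicate 2 was not. For petG the controls read 5.67 and 5.69 and the induced arrays 6.09 and 5.58, a change of 0.15 ± 0.16. For psaC they read 5.93 and 5.95 and then 6.15 and 5.93, a change of 0.10 ± 0.10. The rps15 levels were 6.002 and 5.936 and then 6.35 and 5.97, a change of 0.19 ± 0.13. For matK they were 10.54 and 10.35 and 10.87 and 9.97, a change of −0.03 ± 0.27. These 4 genes share that layout, and so does rbcL, at 8.19 and 7.98 and then 8.86 and 7.84. Of the polymerase genes, rpoC1 read 8.28 and 7.81 and then 8.61 and 7.58, a change of 0.05 ± 0.32, and rpoA 13.19 and 12.61 and then 12.87 and 12.76, a change of −0.09 ± 0.18. The controls enclosed both induced arrays for rpoA, while the induced arrays enclosed both controls for rpoC1. For rpl22 both induced arrays, at 11.96 and 11.79, were above the controls at 11.67 and 11.76, a change of 0.16 ± 0.10 (adjusted p = 0.406).

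By function, medians after ANAC059 induction were −0.28 for photosystem I, −0.27 for both the cytochrome b6f group and the genes matK, clpP, accD and cemA, −0.19 for photosystem II and −0.17 for the small ribosomal subunit. They were −0.05 for the ATP synthase, −0.03 for the polymerase, 0.03 for NDH and 0.08 for the large ribosomal subunit, and rbcL stood at 0.27 ± 0.30. The 18 mitochondrial probe sets had a median of −0.04. Of the 20 nuclear partners 17 were positive with a median of 0.13, and RCA was called: its controls read 12.20 and 12.33 and its induced arrays 12.84 and 12.95, a rise of 0.63 ± 0.10 (SE, adjusted p = 0.0251). That call was kept in 1 of the 4 fits without single arrays (adjusted p 0.0474 to 0.139), the fit that left out induced replicate 1.

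**Figure D4:**
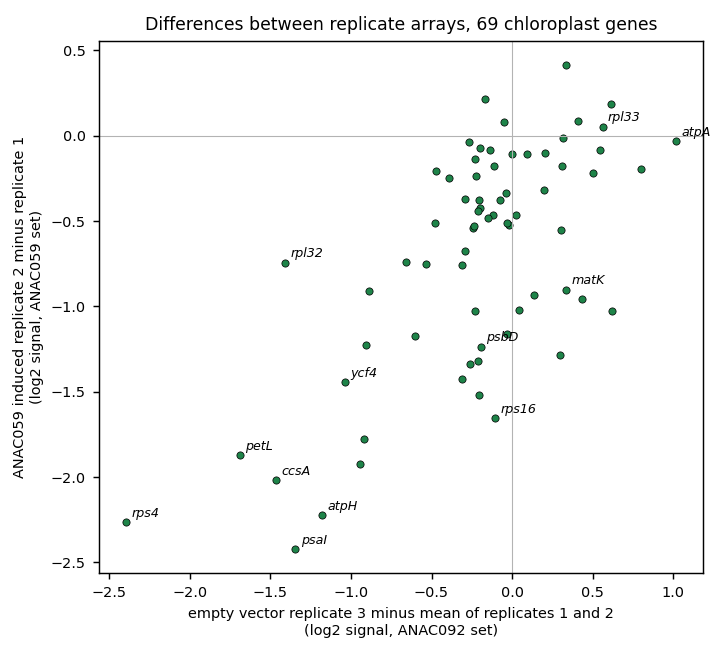
Each point is 1 of the 69 chloroplast genes; the horizontal axis is the log2 signal of empty vector replicate 3 minus the mean of replicates 1 and 2 in the ANAC092 set, and the vertical axis is ANAC059 induced replicate 2 minus replicate 1 in the ANAC059 set. Genes such as rps4, petL, ccsA, psaI and atpH are low in both differences, and 63 points lie below 0 on the vertical axis.

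The genes that were low on ANAC059 induced replicate 2 tended to be those low on empty vector replicate 3, although these differences share no array. For rps4 they were −2.26 (ANAC059 replicate 2 minus 1) and −2.40 (empty vector replicate 3 minus the average of the other controls). For psaI they were −2.42 and −1.34. Over the 69 genes Pearson's r was 0.675 and Spearman's rho 0.561. The points share their genome, operons and arrays, so they are not independent. Over all probe sets r was 0.228, and over the 18 mitochondrial probe sets it was −0.134. The genes set apart in this way are spread over several complexes: rps4 of the ribosome, petL and ccsA of the cytochrome group, psaI of photosystem I and atpH of the ATP synthase.

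In leaf 11, with 1 array a genotype and so no test, chloroplast genes were higher in both insertion lines than in wild type or close to it. In the ANAC059 line 15 of 69 genes (21.7%) were higher by at least 1, a 2-fold difference, against 4.65% of all probe sets. In the ANAC092 line there were 5 (7.25%), against 0.980%. None was lower by 1 or more in either line, as were 0.611% and 0.822% of all probe sets. The medians were 0.31 and 0.13, against 0.00 in both lines over all probe sets. All 15 genes were also above wild type in the ANAC092 line, and all 15 were higher in the ANAC059 line than in the ANAC092 line. These 15 were picked for a large difference between the ANAC059 line and wild type, which favours both orders. Of all 69 genes, 37 were above wild type in both lines, against 3622 of all 22746 probe sets. The ANAC059 line was above the ANAC092 line in 38 of the 69 and below it in 19, against 7573 and 10043 of all probe sets. The differences of both lines to wild type use the same wild type array.

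The largest leaf differences were those of a ribosomal protein gene and a pair of adjacent NDH genes. For rps3 wild type read 4.81, the ANAC059 line 8.79 and the ANAC092 line 6.56, for differences of 3.98 and 1.75. For ndhA the levels were 4.86, 8.23 and 7.05 in wild type, the ANAC059 line and the ANAC092 line, and for ndhI they were 7.71, 11.01 and 9.71. Neighbouring genes of the same operon had smaller differences: ndhH differed by −0.06 and 0.09, ndhG by 0.00 and 0.61, and ndhD by 0.00 in both. The ndhH signal was dim, at 3.58, 3.52 and 3.67, and ndhD carried exactly the same value, 9.25, on all 3 arrays. Such values do not show equal levels. Next came clpP, at 7.26, 10.10 and 8.04 in the same order of genotypes, rps19 with differences of 2.68 and 1.06, and atpA, at 6.63, 8.89 and 7.03. The atpA signal was thus high in 1 line and 0.40 above wild type in the other. For cemA the differences were 1.64 and 1.22.

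The ribosomal operon that ends in rpoA held 6 of the 15 genes, among 7 measured. Its differences in the ANAC059 line ran from 0.42 in rpl14 to 3.98 in rps3, with rpl36 at 2.08, rpl22 at 1.92, rpl16 at 1.48 and rpoA at 1.32. The medians of this operon were 1.92 in the ANAC059 line and 0.74 in the ANAC092 line. Elsewhere psaB, psbH, rps2 and rpoC1 were the remaining genes past 1, at 1.54, 1.45, 1.19 and 1.17 in the ANAC059 line. By function the medians in that line were 1.18 for matK, clpP, accD and cemA, 0.67 for the small and 0.42 for the large ribosomal subunit, 0.62 for the polymerase, 0.42 for the ATP synthase, 0.19 for NDH, 0.05 for photosystem II, −0.03 for the cytochrome group and −0.13 for photosystem I. In the ANAC092 line those of photosystem I, photosystem II and the cytochrome group were 0.00. The lowest leaf difference was that of psbN in both lines, with levels of 5.91, 5.57 and 5.57 in wild type, the ANAC059 line and the ANAC092 line and a difference of −0.34 in each. In the ANAC059 line rpl32 (−0.27), psbT (−0.26), psaA (−0.22), petL (−0.21) and ycf4 (−0.20) followed. Of these, rpl32 read 10.94, 10.67 and 11.02 and psbT 6.71, 6.45 and 6.87 in the same order of genotypes, so both were above wild type in the ANAC092 line. In the ANAC092 line ycf4, at 5.70, 5.50 and 5.50, and psbA, at 11.04, 10.86 and 10.86, followed psbN, with differences of −0.20 and −0.18 that were the same in both lines. The gene rbcL read 8.56, 8.44 and 8.56. The 18 mitochondrial probe sets had medians of −0.36 and −0.15, and none was higher by 1.

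**Figure D5:**
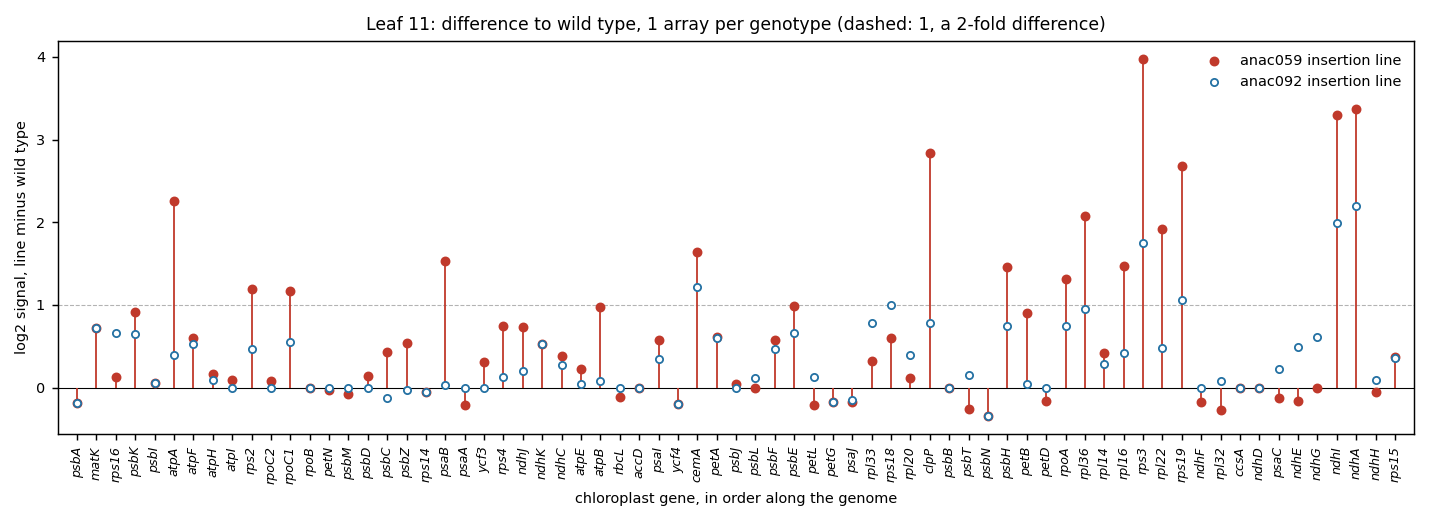
Log2 signal minus wild type in leaf 11 (vertical axis) for the 69 chloroplast genes in the order of the genome (horizontal axis); filled points are the ANAC059 insertion line, open points the ANAC092 line, and the dashed line marks 1. The high points cluster at rpl36 to rps19 and at ndhI and ndhA, with single high points at atpA, psaB, cemA and clpP.

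Some of these leaf values rest on dim signals. In 6 of the 15 genes the wild type level was below 5.73, the median of that array: rpl22, for instance, read 3.88, 5.79 and 4.36 and rpl36 4.48, 6.56 and 5.44. In 24 of the 69 genes (34.8%) a pair of leaf arrays carried exactly the same value, as in 42.4% of all probe sets. How these equal values arose was not tested. The actin 3′ to 5′ difference was 4.18, 4.18 and 3.60 in wild type, the ANAC059 line and the ANAC092 line, that of GAPDH 1.97, 1.94 and 1.93 and that of ubiquitin 0.79, 0.69 and 0.76; their part in the leaf differences was not tested. Leaf differences in the ANAC059 line and changes after ANAC092 induction did not run in parallel: over the 69 genes r was −0.034 and rho −0.006, from arrays that are not shared. Thus rps3 and ndhI, with leaf differences of 3.98 and 3.30, had changes of 0.03 and 0.18 after ANAC092 induction, while for atpA and clpP the values were 2.25 and 2.84 in the leaf and 1.87 and 0.90 after induction.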

How the data were processed

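Total RNA was labelled with biotin and measured on Affymetrix ATH1 arrays, giving 13 profiles. The authors deposited RMA values on the log2 scale, a method that corrects background, normalizes by quantiles and sums probes into probe sets, per the submitters' processing notes. Neither its version nor the genome build of the array design is named there. Per the labels, RMA was run separately on the ANAC092 set (6 arrays), the ANAC059 set (4) and the leaf set (3), so values were compared only within a set, and a shift shared by most transcripts would be hidden by quantile normalization. The number of arrays limits the precision.

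Of 22810 probe sets 64 controls were left out. Probe sets were named from the platform annotation, and 13436 of the 13513 with 1 gene matched the TAIR10.1 gene table, which served for names and gene order. No filter on low values was applied, so all 69 chloroplast genes were tested. Induced and empty vector arrays, grouped by their titles, which call them biological replicates, were compared by two-sided limma tests (version 3.58.1, R 4.3.3) with lmFit and eBayes and no term but group, adjusted by Benjamini-Hochberg over 22746 probe sets, at a threshold of 0.05. The fits were tested on simulated data. Errors with changes are limma's standard errors. Leaf arrays were compared as differences, without a test.

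The chloroplast genes, the operon, polymerase, mitochondrial and nuclear lists and the tests were chosen with earlier results of these data known. Values by array are given for every called gene, for the highest and lowest change in each function and induction, and for the 3 highest and 3 lowest leaf differences in each line; other genes named were chosen after their values were seen. Alternatives were leaving out each array, other normalizations, a filter on dim probe sets, suffix and threshold choices, an intensity trend, a replicate block, induced replicates 1 and 3 averaged, and empty vector replicate 3 as the only control. Replicate numbers were not used to pair the samples in the main fits. Deviations of same-numbered induced and empty vector arrays correlated at −0.107, 0.271 and 0.0968 in the ANAC092 set. Those of arrays with unlike numbers correlated at −0.244 to 0.202. In the ANAC059 set the values were 0.0281 and −0.0281, equal in size by construction with 2 arrays a group. These values do not settle whether the numbers pair the samples.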

Additional observations from a re-analysis of the deposited data

Results flagged for a closer look

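The gene psbC, for the CP43 antenna protein of photosystem II, and its operon neighbour psbZ lay on opposite sides of the controls in the 2 inductions. For psbC the change was 0.21 after ANAC092 induction, with all 3 induced arrays above all controls, and −0.36 after ANAC059 induction, with both induced arrays below both controls. For psbZ the changes were 0.47 and −0.53 with the same layout. None of the 4 changes passed the threshold (limma adjusted p of 0.435 and 0.278 for psbC and 0.389 and 0.26 for psbZ). The difference between the inductions was not tested, and empty vector replicates 1 and 2 are shared by both. ANAC059 induced replicate 2 lay well below replicate 1 for both genes, at 12.93 and 13.45 for psbC and 10.54 and 11.28 for psbZ.

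A signal outside the 69 genes was seen for rps12, a trans-spliced gene for a protein of the small ribosomal subunit, whose probe sets are annotated to 2 gene copies. Both of its probe sets rose after ANAC092 induction (limma). One read 6.98, 6.80 and 6.91 on the empty vector arrays and 7.94, 7.49 and 8.21 on the induced arrays, a change of 0.98 ± 0.18 (SE) with an adjusted p of 0.0393. The other read 10.40, 10.44 and 10.04 and then 10.98, 11.25 and 11.42, a change of 0.92 ± 0.16 (SE) with an adjusted p of 0.0298. In the genome part of this gene lies in the same operon as clpP and rpl20.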

How the results depend on the processing

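Of the chloroplast genes called after ANAC092 induction, 5 with all arrays, between 0 and 5 were called when 1 array was left out, 9 at an adjusted p under 0.1 and 1 (ndhJ) with induced replicates 1 and 3 averaged. With empty vector replicate 3 as sole control the median change was 0.54, and 53 genes had all induced arrays above it. After ANAC059 induction, where 0 were called with all arrays, the count was 0 to 14 and the median −0.35 to 0.17 when 1 array was left out, with a change of sign without induced replicate 2. Leaf differences of at least 0.5 were met by 29 and 20 genes in the ANAC059 and ANAC092 lines, against 15 and 5 at 1; over all probe sets the shares were 12.0% and 4.27% at 0.5. No other alternative moved these counts by over 1.5 times, and no called gene reversed. Quantile normalization once more and centring each array on its median each ended the call of rbcL (adjusted p = 0.0723 and 0.0632). With the replicate number as a block 7 chloroplast genes were called after ANAC092 induction, with rbcL lost at an adjusted p of 0.0515, and 0 after ANAC059 induction, where 0 of all probe sets passed in place of 679; the block took the called nuclear gene RCA to 0.0942. Leaving out 1 array brought the calls over all probe sets from 507 to between 209 and 787 after ANAC092 induction and from 679 to between 161 and 444 after ANAC059 induction; averaging replicates 1 and 3 gave 242, and a threshold of 0.1 gave 751 and 1347. With 2 arrays a group in 1 set and 1 array a genotype in the leaf set, a p that missed the threshold does not show equal levels, and no leaf difference has a replicate error. Causes of these shifts were not tested. A fit with 1 array left out also has fewer arrays, and the part of each cannot be told apart.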

Other observations

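The other 6 probe sets annotated to chloroplast genes with 2 copies were not called in either induction. After ANAC092 induction their changes were 0.87 for rps7, 0.64 for ycf1, 0.58 for rpl2, 0.55 for rpl23, −0.12 for ycf2 and −0.19 for ndhB. In leaf 11 rps7 read 8.65 in wild type, 11.14 in the ANAC059 insertion line and 9.11 in the ANAC092 line, a difference of 2.48 and 0.46. For rps12 one probe set differed by 2.98 and 0.32 and the other by 0.86 and 0.00. For ycf1, an envelope protein gene, the differences were 0.82 in the ANAC059 line and 0.93 in the ANAC092 line. For ndhB, a subunit of the NDH complex, the leaf differences were −0.22 in the ANAC059 line and 0.35 in the ANAC092 line.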
